A study of Triticum aestivum with 24 samples.

Results

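Family miR1137 was represented in leaves of hexaploid wheat (Triticum aestivum) by 18 of the 202 mature miRNA tags counted, and 9 of these 18 came from the 5p arm of the precursor and were 21 nt long. These 9 tags were taken from the 202 by family number, arm and length alone, without regard to their read counts. The 202 themselves had been kept by the study only if they reached a minimum level in at least 1 library. A tag is a distinct small RNA sequence, so that sequences differing by 1 base or by 1 nt in length were counted separately. Plants of cv Chinese Spring, all grown from the selfed seed of a single plant, were either kept at 18 °C in the light and 16 °C in the dark (control) or exposed at the boot stage to 37 °C for 5 days (heat). After the 5 days the heated plants were returned to the control conditions. Leaves were collected at the end of the stress (0 DAT, days after treatment) and at 1 and 4 DAT. Each of the 6 groups of treatment and day had 4 libraries (n = 4), each made from the RNA of 18 pooled plants. Since leaves of every plant were taken on all 3 days, the 24 libraries came from 8 pools and the days of a treatment were not independent. In such pooled leaf RNA, a different share of cells and a different level per cell cannot be told apart, and a table of miRNA tags holds no marker genes against which the tissue could be checked.

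Plant miRNAs are cut by a Dicer-like enzyme from the arms of a hairpin precursor and loaded into an Argonaute protein, which they guide to transcripts of matching sequence. The duplex released from the hairpin consists of a strand from the 5p arm and a strand from the 3p arm, and the identity of the first base influences which Argonaute takes a strand up. Families such as miR1137 have precursors that are long inverted repeats with near-perfect arms, and many copies of such repeats lie scattered in cereal genomes. Length and end variants of a mature miRNA, called isomiRs, arise where the enzyme cuts at a neighbouring position or where precursor copies differ.

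The 9 tags are shown to let their shared core be seen. They are given as DNA letters from 5′ to 3′ with bases 2 to 8, the seed, in capitals, in order of the position of their first base in the precursor.
miR1137-171-5p: tCCCTCCGttccaaaatagat
miR1137-443-5p: cTCCGTTCcaaaatagatgac
miR1137-504-5p: cTCCGTTCtaaaatagatgac
miR1137-137-5p: cTCCGTTTcaaaatagatgac
miR1137-121-5p: tCCGTTCCaaaatagatgact
miR1137-226-5p: tTCCGAAAtagatgactgaac
miR1137-491-5p: tCCAAAATagatgactcaact
miR1137-383-5p: tAGATGACccaactttgtact
miR1137-332-5p: tGACCCAActttgtactaact

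Seed grouping joined only miR1137-443-5p and miR1137-504-5p, and the other 7 tags each had a seed of their own. Relative to miR1137-443-5p and with positions counted from 1 at its 5′ end, miR1137-504-5p carried C9T and miR1137-137-5p carried C8T, the latter inside the seed. miR1137-121-5p started 1 base downstream, and its last base corresponded to C22T, the first base after miR1137-443-5p in the precursor of the latter. miR1137-491-5p, whose start was shifted by 6 bases, held the same C22T. miR1137-226-5p was shifted by 5 bases and had A10G, C22T and C23G. The remaining shifts were 13 bases for miR1137-383-5p and 17 bases for miR1137-332-5p, both without a mismatch to the precursor of miR1137-443-5p. miR1137-332-5p therefore shared only 4 bases with miR1137-443-5p. A U as first base, the T of the DNA letters, was present in 6 of the 9 tags, and the 3 tags that share the start of miR1137-443-5p began with C. The 6 include miR1137-171-5p in the orientation of the study's list.

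The start of miR1137-171-5p lay 3 bases upstream of that of miR1137-443-5p. This tag was deposited as the reverse complement of the sequence that the study lists, and the listed letters are shown. Its reverse complement occurs in the precursors too, on the opposite arm, so the arm of its reads, and with it the first base, seed and start given here, rests on the list alone.

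The precursor listed for miR1137-443-5p shows where the tag sits and how the arms mirror each other. It was located on chromosome 1B, minus strand, chr1B:413138048-413138140 of IWGSC RefSeq v1.0, and is printed with the tag in capitals.
precursor of miR1137-443-5p: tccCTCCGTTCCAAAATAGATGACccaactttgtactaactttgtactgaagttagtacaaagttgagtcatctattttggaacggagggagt

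In this hairpin the bases after the loop repeat nearly all of the 5p arm in reverse complement, the whole tag included. miR1137-443-5p was contained in 9 of the 18 distinct precursors listed for the family, and its reverse complement in 13 of them. The number of listed precursors holding a tag was 8 for miR1137-171-5p, 6 each for miR1137-383-5p and miR1137-332-5p, 5 for miR1137-121-5p and 4 for miR1137-491-5p. miR1137-504-5p and miR1137-137-5p were each in 2, and miR1137-226-5p was in 1. These counts cover the listed precursors of the family only and are not numbers of loci in the genome. Reads of a tag found in several precursors cannot be assigned to a locus, and further loci of a tag found in 1 were not searched for. The other members were listed on chromosomes 7A (miR1137-504-5p), 6A (miR1137-137-5p), 5D (miR1137-121-5p and miR1137-226-5p), 6B (miR1137-171-5p), 2D (miR1137-491-5p), 1B (miR1137-383-5p) and 6D (miR1137-332-5p). Genes around these loci were not analysed here.

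**Figure D1:**
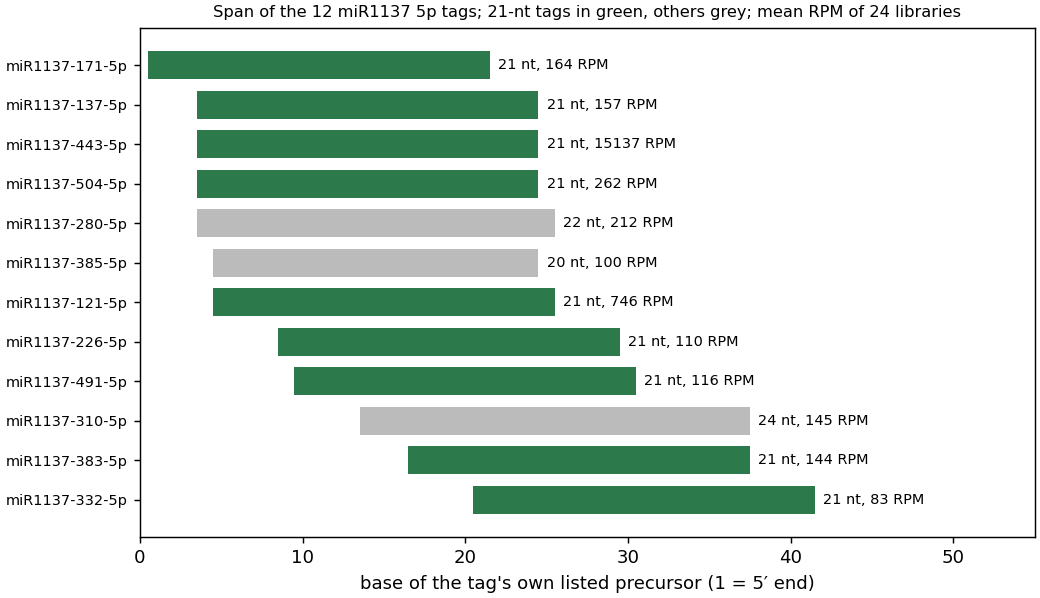
Span of the 12 miR1137 5p tags along their own listed precursors (x axis, base number from the 5′ end), with length and mean level over 24 libraries in RPM (reads per 1000000 miRNA reads) at each bar. The 9 tags of 21 nt (green) start between base 1 and base 21 and the 3 tags of other lengths (grey) between base 4 and base 14.

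The level of a tag was expressed in RPM, its reads per 1000000 miRNA reads of the library after scaling by the trimmed mean of M values (TMM). Libraries held 58501 to 300261 miRNA reads (median 137292) and 193 to 202 of the 202 tags. The 9 tags together had 962 to 4080 reads per library, which was 87.0% ± 1.53 (SD, n = 24 libraries) of the reads of family miR1137 and 1.75% ± 0.56 of all miRNA reads. Every one of the 9 tags was read in all 24 libraries.

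miR1137-443-5p was by far the most abundant member. Its mean level was 15137 RPM (range 9873 to 20684, n = 24), rank 8 among the 202 tags, and it made up 89.2% ± 1.74 (SD, n = 24) of the members' reads. miR1137-121-5p, the tag with its start shifted by 1 base, followed with 746 RPM (534 to 955) and rank 34. miR1137-504-5p had 262 RPM (105 to 421). Below it, the means were 164 RPM for miR1137-171-5p, 157 RPM for miR1137-137-5p, 144 RPM for miR1137-383-5p, 116 RPM for miR1137-491-5p, 110 RPM for miR1137-226-5p and 83.0 RPM for miR1137-332-5p. Spread between libraries, as the coefficient of variation over all 24, was lowest in miR1137-121-5p (15.9%) and miR1137-443-5p (19.0%) and highest in miR1137-383-5p (45.8%) and miR1137-332-5p (47.5%). The latter was also the most thinly read, with fewer than 10 reads in 12 libraries.

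Neighbours in this order were compared by the log2 ratio of their reads within each library, averaged per pool of plants, with an exact sign-flip test over the 8 pools (two-sided, smallest possible p = 0.0078, adjusted over 8 pairs). The pairs and their direction were set by the mean levels in these same libraries, so the tests are no independent support for the order. A pool was taken as the libraries of equal number within a treatment. miR1137-443-5p exceeded miR1137-121-5p by 4.33 ± 0.09 (SD, n = 8 pools) on the log2 scale, in 8 of 8 pools (exact p = 0.0078, adjusted p = 0.0208). miR1137-121-5p exceeded miR1137-504-5p by 1.55 ± 0.21 and miR1137-504-5p exceeded miR1137-171-5p by 0.67 ± 0.24, each in 8 of 8 pools with the same exact p and adjusted p. From miR1137-171-5p to miR1137-226-5p no pair of neighbours passed the test over all 8 pools: the log2 ratios were 0.03 ± 0.41 for miR1137-171-5p to miR1137-137-5p, 0.23 ± 0.56 for miR1137-137-5p to miR1137-383-5p, 0.24 ± 0.30 for miR1137-383-5p to miR1137-491-5p and 0.03 ± 0.58 for miR1137-491-5p to miR1137-226-5p (exact sign-flip tests, adjusted p from 0.125 to 0.859). miR1137-226-5p exceeded miR1137-332-5p by 0.50 ± 0.44 in 7 of 8 pools (exact p = 0.0234, adjusted p = 0.0469). That last call was lost when any 1 of 7 of the 8 pools was left out (exact p over 7 pools from 0.0313 to 0.0469, adjusted p from 0.0625 to 0.0938), and held only without pool 3 of heat. Without pool 2 of heat, miR1137-383-5p and miR1137-491-5p did differ (exact p over 7 pools = 0.0156, adjusted p = 0.0313).

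The question of the design was whether the tags responded to heat and during recovery. None of the 9 tags was called between heat and control on any day (edgeR quasi-likelihood test, false discovery rate below 0.05, adjusted over all 202 tags). On the same days the test called 17.3% of the 202 tags at 0 DAT, 11.4% at 1 DAT and 0% at 4 DAT. At an unadjusted p below 0.05 there was 1 member at 0 DAT, 0 at 1 DAT and 1 at 4 DAT, and neither DESeq2 nor edgeR's likelihood ratio test called a member. Of all 202 tags, 56, 48 and 26 had an unadjusted p below 0.05 at 0, 1 and 4 DAT. DESeq2 called 35, 22 and 4 tags on these days, and the likelihood ratio test 41, 27 and 3. The test of the 3 days together also called 0 of the 9 members (1 at an unadjusted p below 0.05, 0 by the likelihood ratio test). Of all tags it called 22.3%, 64 had an unadjusted p below 0.05, and the likelihood ratio test called 57. This test treated the 24 libraries as independent, although they came from 8 pools. It was not run with the pool of plants as a block. The median log2 fold change of the 9 members, heat minus control, was 0.18 at 0 DAT, -0.05 at 1 DAT and -0.003 at 4 DAT, and that of all tags was -0.04, -0.12 and -0.06. Values of heat and control overlapped for 9 of 9 members on each day. Of all tags, 23.3%, 9.41% and 8.42% did not overlap. Whether the 9 members differ from all tags, in overlap or in calls, was not tested.

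**Figure D2:**
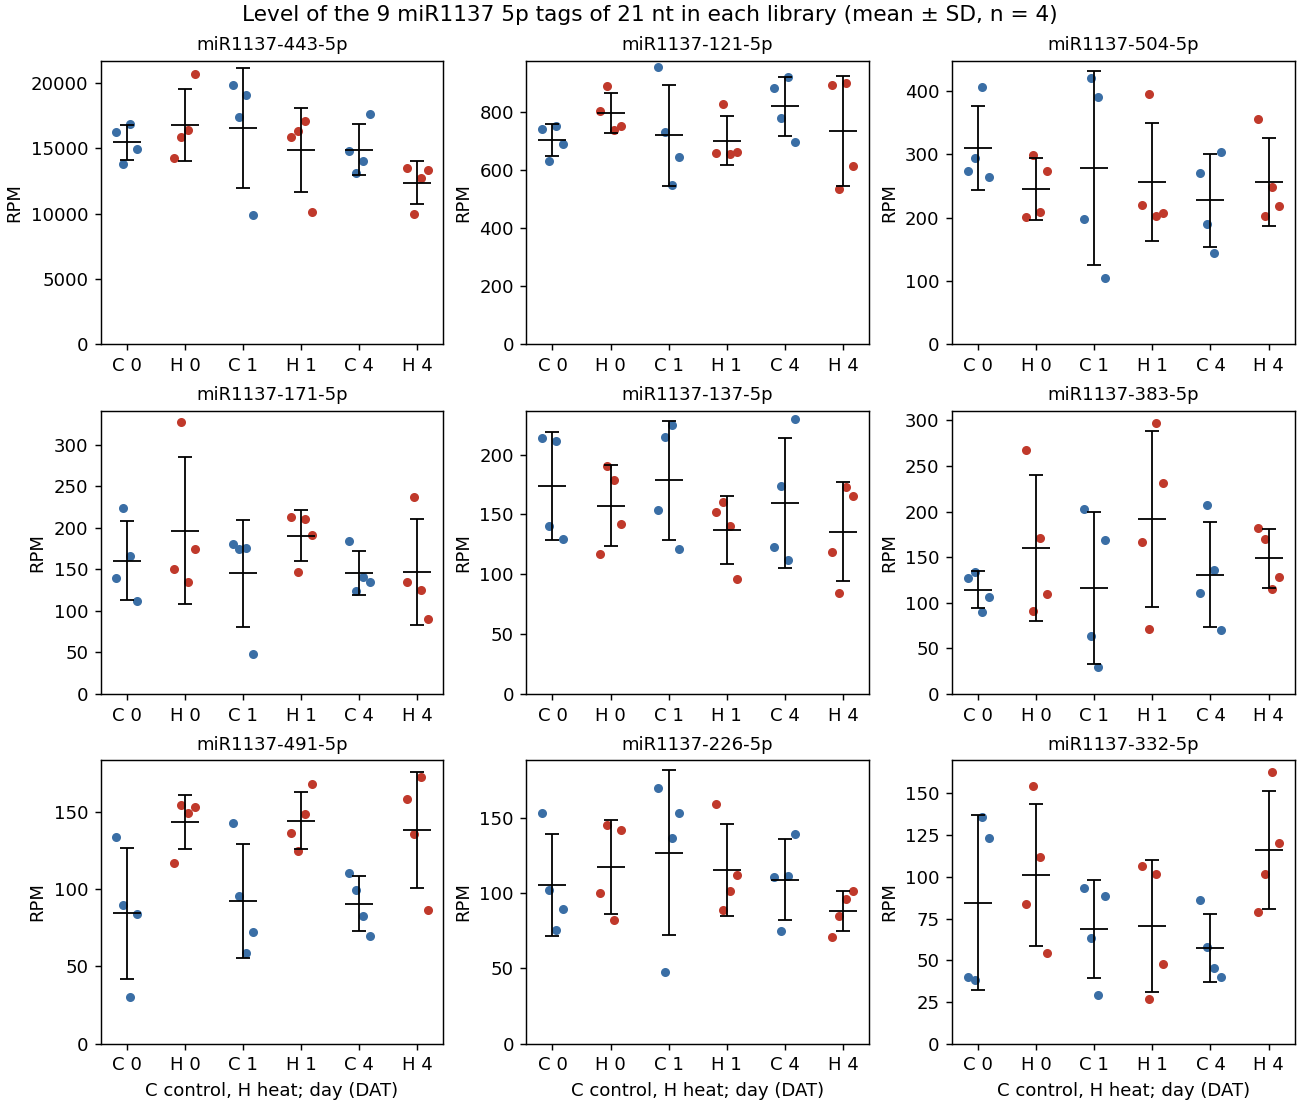
Level in RPM (y axis, from 0, scale differs between panels) of each of the 9 tags in every library, by treatment (C control, H heat) and day, with the mean and SD of the 4 libraries of a group as black bars. Heat and control points overlap on every day in all 9 panels, and for miR1137-491-5p the heat means of 138 to 144 RPM lie above the control means of 84.3 to 92.3 RPM.

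miR1137-443-5p, the dominant tag, was described first. At 0 DAT its level in libraries 1 to 4 was 16215, 13797, 16823 and 14935 RPM in control and 14256, 15830, 16383 and 20684 RPM in heat. At 1 DAT it was 19810, 17371, 19076 and 9873 RPM in control and 15878, 16305, 17056 and 10092 RPM in heat. At 4 DAT it was 14791, 13083, 13985 and 17583 RPM in control and 13476, 9998, 12686 and 13312 RPM in heat. Library 4 was the lowest of its group in both treatments at 1 DAT, and at 4 DAT all 4 heat libraries were under the control mean. The log2 fold changes were 0.12 ± 0.22 (SE) at 0 DAT, -0.16 ± 0.22 at 1 DAT and -0.26 ± 0.22 at 4 DAT, with edgeR adjusted p of 0.762, 0.694 and 0.579. Their 95% intervals ran from -0.33 to 0.57, from -0.61 to 0.30 and from -0.72 to 0.19, so that a change of 1 log2 unit in either direction was outside them on each day.

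miR1137-121-5p had the same property. At 0 DAT it stood at 740, 633, 754 and 690 RPM in control and at 803, 890, 738 and 754 RPM in heat. At 1 DAT it stood at 955, 730, 548 and 645 RPM in control and at 660, 827, 657 and 663 RPM in heat. At 4 DAT it stood at 884, 779, 922 and 698 RPM in control and at 894, 534, 901 and 616 RPM in heat. The ranges of heat and control overlapped each time, with all 4 heat libraries above the control mean at 0 DAT only. The log2 fold changes were 0.18 ± 0.23 (SE), -0.04 ± 0.23 and -0.16 ± 0.23 (edgeR adjusted p = 0.698, 0.909 and 0.767), and the widest reach of the 95% intervals was -0.62 and 0.65.

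The tags with 1 substitution relative to miR1137-443-5p were also not called. miR1137-504-5p averaged 310 ± 66.2 RPM (SD, n = 4) in control and 246 ± 48.4 RPM in heat at 0 DAT, 279 ± 152 and 257 ± 93.0 RPM at 1 DAT, and 227 ± 72.8 and 257 ± 69.0 RPM at 4 DAT. Its log2 fold changes were -0.31 ± 0.36 (SE), -0.09 ± 0.35 and 0.18 ± 0.35 (edgeR adjusted p from 0.669 to 0.882). miR1137-137-5p averaged 174 ± 44.9 RPM in control and 157 ± 33.8 RPM in heat at 0 DAT, 178 ± 49.6 and 137 ± 28.6 RPM at 1 DAT, and 159 ± 54.0 and 135 ± 41.3 RPM at 4 DAT. The log2 fold changes of miR1137-137-5p were -0.09 ± 0.31 (SE), -0.36 ± 0.30 and -0.23 ± 0.30 (edgeR adjusted p from 0.547 to 0.895). Their 95% intervals all included 0, and at 1 DAT 0 of 4 heat libraries were above the control mean.

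Of the 9 tags, miR1137-491-5p came nearest to a call. At 0 DAT it was measured at 133, 89.5, 30.1 and 84.2 RPM in control and at 117, 154, 149 and 153 RPM in heat. At 1 DAT it was measured at 143, 95.3, 58.7 and 72.5 RPM in control and at 137, 125, 149 and 168 RPM in heat. At 4 DAT it was measured at 110, 99.5, 82.7 and 69.8 RPM in control and at 158, 136, 173 and 86.4 RPM in heat. The heat libraries were above the control mean in 4 of 4, 4 of 4 and 3 of 4 cases, and the groups overlapped each time through control library 1 or, at 4 DAT, heat library 4. The log2 fold changes were 0.70 ± 0.33 (SE), 0.59 ± 0.32 and 0.61 ± 0.32, with unadjusted p of 0.0469, 0.0756 and 0.0720 and edgeR adjusted p of 0.172, 0.283 and 0.391. In the test of the 3 days together its edgeR adjusted p was 0.0815, the lowest of the members. It was called there with DESeq2 size factors (adjusted p = 0.0418) and without library 1 of control at 0 DAT (0.0448), library 1 of control at 1 DAT (0.0339) or library 4 of heat at 4 DAT (0.0425), over 30 alternatives in which the adjusted p ranged from 0.0339 to 0.139. The tag rests on 2 to 28 reads per library, and the test of the 3 days together treated libraries of the same plants as independent.

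miR1137-332-5p, the tag farthest downstream, had the largest estimate of the 9. At 4 DAT its level was 85.9, 58.0, 45.5 and 39.9 RPM in control and 79.1, 102, 163 and 120 RPM in heat. Control library 1 exceeded heat library 1, and the other 3 heat libraries were above all control libraries. The log2 fold change was 1.09 ± 0.47 (SE; 95% interval 0.11 to 2.07) with an unadjusted p of 0.0303 and an edgeR adjusted p of 0.382. At 0 and 1 DAT its estimates were 0.36 ± 0.48 and -0.05 ± 0.48. A rise of 1 log2 unit was inside the 95% interval at 0 DAT (-0.63 to 1.35). At 1 DAT (-1.04 to 0.93) a fall of 1 log2 unit was inside the interval and a rise of 1 was just outside. The tag rests on 3 to 32 reads per library.

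The 3 remaining members varied without a call. miR1137-383-5p averaged 115 ± 19.8 RPM (SD, n = 4) in control and 160 ± 79.8 RPM in heat at 0 DAT, 116 ± 83.0 and 192 ± 96.3 RPM at 1 DAT, and 131 ± 57.8 and 149 ± 32.2 RPM at 4 DAT, with an SD of 71.4% of the mean in control at 1 DAT. Its log2 fold changes were 0.41 ± 0.48 (SE), 0.63 ± 0.45 and 0.19 ± 0.45 (edgeR adjusted p from 0.463 to 0.835). miR1137-171-5p had log2 fold changes of 0.31 ± 0.36, 0.38 ± 0.36 and -0.003 ± 0.35, and miR1137-226-5p of 0.13 ± 0.35, -0.16 ± 0.33 and -0.31 ± 0.34 (edgeR adjusted p from 0.605 to 0.999).

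**Figure D3:**
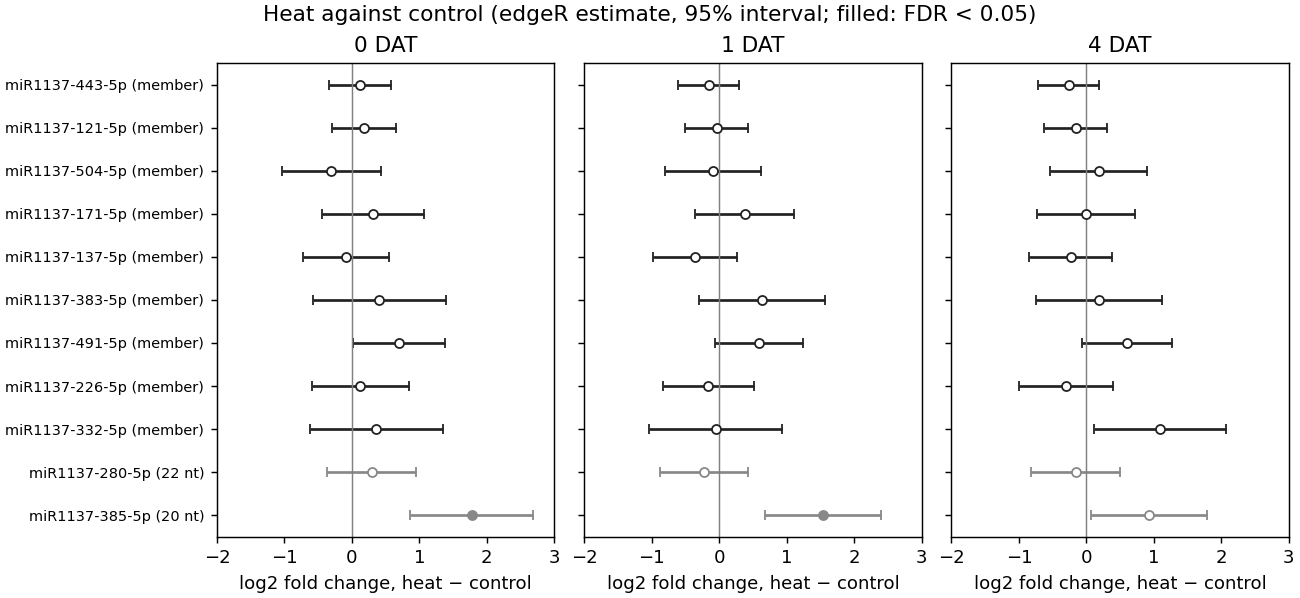
Log2 fold change of heat minus control (x axis, edgeR estimate with its 95% interval) at 0, 1 and 4 DAT for the 9 members (black) and 2 miR1137 5p tags of other lengths (grey), with filled symbols below a false discovery rate of 0.05. Only the 20-nt tag miR1137-385-5p is filled, at 0 and 1 DAT, at 1.78 and 1.54.

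Recovery after heat was compared within each treatment. Between 0 and 1 DAT, 0 of 9 members were called in heat, where 1.98% of the 202 tags were, and 0 of 9 in control, where 0% were. Between 0 and 4 DAT, 0 of 9 were called in heat, where 5.45% of all tags were, and 0 of 9 in control, where again 0% were. No member had an unadjusted p below 0.05 in these 4 comparisons by edgeR's quasi-likelihood test. DESeq2 and the likelihood ratio test called none, although DESeq2 had 1 member below 0.05 unadjusted for heat at 4 against 0 DAT. For all tags in heat, 20 and 44 had an unadjusted p below 0.05 at 1 and 4 DAT against 0 DAT. DESeq2 called 7 and 19 of the 202 tags there, and the likelihood ratio test 9 and 16. For all tags in control, 9 and 7 had an unadjusted p below 0.05 at 1 and 4 DAT against 0 DAT, and neither other test called any. The lowest adjusted p among the members belonged to miR1137-443-5p in heat at 4 against 0 DAT, with a mean of 16788 ± 2749 RPM (SD, n = 4) at 0 DAT and 12368 ± 1616 RPM at 4 DAT. Its log2 change was -0.44 ± 0.22 (SE, 95% interval -0.90 to 0.01, unadjusted p = 0.0568, edgeR adjusted p = 0.234), while in control the change was -0.06 ± 0.22. The difference between these changes, -0.39 ± 0.31, had an edgeR adjusted p of 0.792.

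A change of the heat effect between days was not called for any member. For the change from 0 to 1 DAT 0 of 9 were called, and 0 of 9 for that from 0 to 4 DAT. None had an unadjusted p below 0.05 by any of the 3 tests. A difference was not excluded, since intervals could be wide. For miR1137-332-5p from 0 to 4 DAT the 95% interval was -0.66 to 2.12. Of all tags, 2.48% and 0.99% were called by edgeR's quasi-likelihood test, and 18 and 17 of the 202 had an unadjusted p below 0.05. DESeq2 called 8 and 7 tags, and the likelihood ratio test 9 and 7.

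Summed over the 9 members, the level was 17179 ± 1463 RPM (SD, n = 4) in control and 18705 ± 2695 RPM in heat at 0 DAT. It was 18258 ± 4787 and 16641 ± 3260 RPM at 1 DAT and 16602 ± 1936 and 14134 ± 1757 RPM at 4 DAT. These sums follow miR1137-443-5p, which supplied most of the reads, and their ranges overlapped between heat and control on each day.

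Ratios within a library do not depend on its depth or scaling and were used to compare related tags of the same region. The tags compared are listed with different precursors. The reads of miR1137-137-5p amounted to 0.928% to 1.11% of those of miR1137-443-5p as a mean of a group, those of miR1137-504-5p to 1.47% to 2.07% and those of miR1137-121-5p to 4.56% to 5.93%. The ratios overlapped between heat and control on all days, and the differences in the mean log2 ratio, heat minus control, were at most 0.46 in size. The nearest to a difference was miR1137-504-5p to miR1137-443-5p, the tag with C9T to the dominant tag, at -0.43 at 0 DAT and 0.46 at 4 DAT (exact permutation test, 4 against 4, two-sided, p = 0.0857 each, adjusted p = 0.321 over 15 tests). With 4 libraries against 4, the exact test could not go below p = 0.0286.

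**Figure D4:**
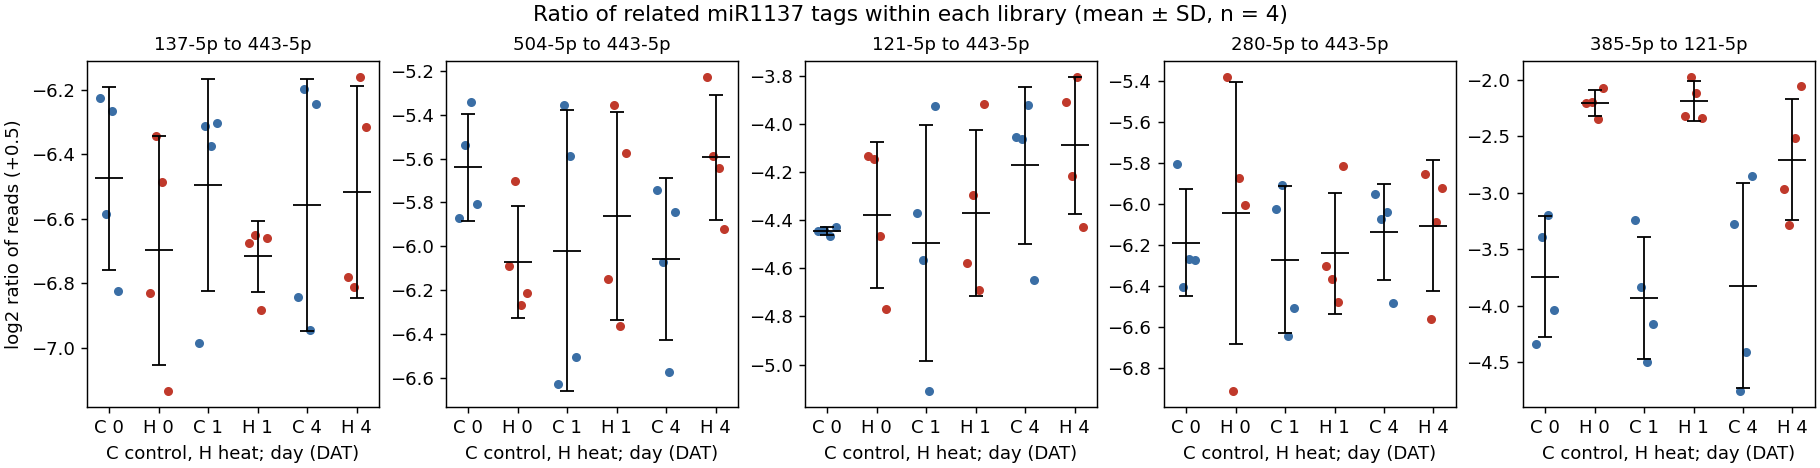
Log2 ratio of reads (y axis, 0.5 added to each count, scale differs between panels) of related miR1137 tags in every library by treatment and day, with mean and SD (n = 4) as black bars. In the panel of the 20-nt tag to miR1137-121-5p the heat libraries at 0 and 1 DAT sit between -2.35 and -1.97 and the control libraries of these days between -4.50 and -3.20.

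Length variants of the members were examined next, because they share the first base of a member and differ at the other end. They are shown with the seed in capitals.
miR1137-280-5p: cTCCGTTCcaaaatagatgact
miR1137-385-5p: tCCGTTCCaaaatagatgac

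miR1137-280-5p, of 22 nt, is miR1137-443-5p extended by 1 base (C22T). It averaged 212 RPM, and its log2 fold changes of 0.29 ± 0.32 (SE), -0.23 ± 0.32 and -0.16 ± 0.32 were not called (edgeR adjusted p from 0.643 to 0.811). miR1137-385-5p, of 20 nt, is miR1137-121-5p without its last base and equally miR1137-443-5p without its first base, so its reads cannot be attributed to either.

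miR1137-385-5p was higher in heat at 0 and 1 DAT, while neither 21-nt tag was called. At 0 DAT it was found at 33.3, 57.5, 75.4 and 39.3 RPM in control and at 167, 191, 142 and 175 RPM in heat. At 1 DAT it was found at 98.8, 47.6, 19.6 and 32.2 RPM in control and at 129, 209, 149 and 127.8 RPM in heat. At 4 DAT it was found at 85.9, 24.9, 41.3 and 94.7 RPM in control and at 111, 50.9, 153 and 146 RPM in heat. Every heat library exceeded every control library at 0 and 1 DAT, and the groups overlapped at 4 DAT. The log2 fold changes were 1.78 ± 0.44 (SE, edgeR adjusted p = 0.00765), 1.54 ± 0.42 (0.0223) and 0.93 ± 0.42 (0.387). The call at 1 DAT was lost without library 2 (adjusted p = 0.0508) or library 3 (0.0624) of control at 1 DAT, with library totals only (0.0625) and with only the 8 libraries of the day (0.139). The change of its heat effect from 0 to 4 DAT, -0.84 ± 0.61, was not called (edgeR adjusted p = 0.722).

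Relative to miR1137-121-5p, miR1137-385-5p had 7.32% ± 2.64 (SD, n = 4) as many reads in control and 21.2% ± 1.65 in heat at 0 DAT, 6.36% ± 2.92 and 21.7% ± 2.84 at 1 DAT, and 7.74% ± 4.80 and 15.7% ± 6.22 at 4 DAT. The groups did not overlap at 0 and 1 DAT. The mean log2 ratio was higher in heat by 1.54 at 0 DAT and by 1.74 at 1 DAT, both at the smallest p the exact permutation test allows (p = 0.0286, adjusted p = 0.214 over 15 tests), and by 1.11 at 4 DAT (exact p = 0.143, adjusted p = 0.429). None of the 15 ratio tests passed after adjustment, and the counts behind miR1137-385-5p were 2 to 47 reads per library.

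Outside the 9 members, the other 9 miR1137 tags had 1 call at 0 DAT, 3 at 1 DAT and 0 at 4 DAT. At an unadjusted p below 0.05 there were 3, 4 and 3 by edgeR's quasi-likelihood test. Their median log2 fold changes were 0.49, 0.53 and 0.24. Of all 202 tags, 17.3%, 11.4% and 0% were called on these days. Among those calls, 18 of 35 at 0 DAT and 13 of 23 at 1 DAT were higher in heat. All 4 calls of the other miR1137 tags were higher in heat, with miR1137-385-5p called at both 0 and 1 DAT. A comparison with the members or with all tags was not tested. Besides miR1137-385-5p, the tags called were miR1137-264-3p (1.66 ± 0.42, SE, edgeR adjusted p = 0.0175) and miR1137-229-3p (1.69 ± 0.53, 0.0461) at 1 DAT, named after their values were seen. Without library 2 of control at 1 DAT 0 of the 3 calls at 1 DAT were left, and without library 3 of that group 1 was left, miR1137-264-3p. With library totals only and with only the libraries of the day there were also 0. The call of miR1137-264-3p held without each of the other 23 libraries (adjusted p from 0.00214 to 0.0508 over all 24). That of miR1137-229-3p held in 13 of 24 cases (0.0297 to 0.117) and was lost without any 1 of the 4 control libraries at 1 DAT, library 2 or 3 of heat at 1 DAT, library 3 of control at 0 DAT, library 2, 3 or 4 of heat at 0 DAT, or library 4 of heat at 4 DAT. At 0 DAT miR1137-229-3p was a second call, beside miR1137-385-5p, without library 1 of heat at 0 DAT, library 2 or 3 of control at 1 DAT or library 1 of control at 4 DAT, and with the likelihood ratio test, DESeq2 or the replicate number as a block. Without library 4 of control at 1 DAT, miR1137-217-3p was called at 1 DAT in place of miR1137-229-3p. Both miR1137-264-3p and miR1137-229-3p are listed as 3p tags, and both match miR1137-137-5p in reverse complement over 20 nt, the longest run of either with a member. miR1137-229-3p was deposited as the reverse complement of the listed sequence, so its arm and this match rest on the list alone. Of the 5 miR1137 3p tags of 21 nt, 0, 2 and 0 were called on the 3 days, and of the 4 miR1137 tags of other lengths 1, 1 and 0. The 23 21-nt 5p tags of families miR1135, miR1136, miR1118, miR1120, miR1121 and miR1122 had 8 calls at 0 DAT (4 higher and 4 lower), 1 at 1 DAT (lower) and 0 at 4 DAT. At an unadjusted p below 0.05 there were 12, 8 and 6 by edgeR's quasi-likelihood test, and the medians were -0.31, -0.29 and -0.18. The shares of all tags called were again 17.3%, 11.4% and 0%, and no difference from them was tested.

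As a description, the tags whose log2 RPM followed that of the 3 most abundant members over the 24 libraries were looked up among the 193 other tags. For miR1137-443-5p it was miR393-2-5p, a 21-nt tag of a conserved family that targets auxin receptor transcripts, with Pearson r = 0.86 over all libraries and 0.83 after group means were removed. For miR1137-121-5p it was miR1137-280-5p with r = 0.42, and for miR1137-504-5p it was the 24-nt tag miR1118-75-5p with r = 0.69. Among the 36 pairs of members, r ranged from -0.67 (miR1137-504-5p and miR1137-383-5p) to 0.64 (miR1137-443-5p and miR1137-137-5p), with a median of 0.03. The points share libraries, scaling and, across days, plants, and most members rest on few reads.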

How the data were processed

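Small RNA of wheat leaves was sequenced in 24 libraries. The authors trimmed the reads, checked them with FastQC, filtered them by size and for chloroplast and other non-coding RNA, and mapped tags with Bowtie2 to IWGSC RefSeq v1.0. For both tools the version is not given in the sources used here. Deposited were raw read counts per tag and library, without normalization. All 24 value columns were matched to samples by their names, and 0 were left over. Groups, days and replicate numbers came from the sample labels. Sequences and precursors were taken from the deposited table and the study's list of precursors. No genome of this build was used.

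From the counts, edgeR's quasi-likelihood test (estimateDisp, glmQLFit, glmQLFTest) was fitted once over 6 groups and 202 tags, with TMM scaling and no filter, and p-values were adjusted by Benjamini-Hochberg over 202 tags (threshold 0.05). SE is the log2 fold change divided by the root of its F value. RPM used TMM-scaled totals. Ratios had 0.5 added to each count and were tested by exact permutation. Alternatives were other scalings, a filter, a likelihood ratio test, DESeq2, blocks, the libraries of 1 day and each library left out. Versions were R 4.3.3, edgeR 4.0.16, DESeq2 1.42.0, Python 3.11.15, scipy 1.17.1 and pandas 2.3.3.

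Named were all 9 members, miR1137-280-5p and miR1137-385-5p, which share a first base with a member, and the tag most correlated (log2 RPM, prior count 2) with each of the 3 most abundant members. The rule for the members uses no counts, but this group of tags and the lists were chosen with earlier results of these data known.

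On simulated counts for heat against control at 0 DAT, 19.5% of 2-fold and 91.5% of 4-fold changes were recovered over 202 tags. Every simulated tag had the common dispersion (0.128), and at that spread a 2-fold change of a single tag could often be missed. The fitted dispersion of the members ran from 0.040 (miR1137-491-5p) to 0.157 (miR1137-383-5p). It was 0.057 for miR1137-443-5p and 0.047 for miR1137-121-5p, so the simulated recovery does not apply to each member alike. Without molecular identifiers, reads are not independent molecules. In 36 pairs of replicates the chi-square per degree of freedom was at least 5.44, and no library counted as a duplicate.

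Within a treatment, equal numbers stand for the same plants by the study's methods, although deviations from group means of 122 tags with a mean count of at least 20 correlated between days with r from -0.55 to 0.44. Between heat and control no meaning of the numbers is given. There r was 0.24 to 0.57 at 1 DAT, above 0.1 in all 4 pairs, but not in all pairs at 0 DAT (-0.12 to 0.26) or 4 DAT (-0.17 to 0.54). The main fit and the permutation tests did not pair heat with control libraries on any day. The replicate number as a block was an alternative fitted over all 3 days at once. No test paired the libraries of 1 DAT alone.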

Additional observations from a re-analysis of the deposited data

Results flagged for a closer look

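In 7 of 90 groups of 4 libraries (9 members, 5 ratios and the summed level), 1 library stood apart from the other 3, with a gap to the nearest that exceeded Dixon's 95% critical value as a share of the group's range. Chance gives about 1 in 20 such groups. In control at 1 DAT, miR1137-171-5p was at 48.4 RPM in library 4 (6 reads) against 175 to 181 RPM in the others. In heat at 1 DAT, miR1137-443-5p was at 10092 RPM in library 4 against 15878 to 17056 RPM. In the same group, library 2 stood above the others for miR1137-504-5p (396 RPM against 203 to 220 RPM) and for miR1137-121-5p (827 RPM against 657 to 663 RPM). In heat at 0 DAT, miR1137-491-5p was at 117 RPM in library 1 (7 reads) against 149 to 154 RPM. The log2 ratio of miR1137-137-5p to miR1137-443-5p was -6.99 in library 1 of control at 1 DAT against -6.38 to -6.30, and -6.88 in library 3 of heat at 1 DAT against -6.67 to -6.65. No change of a member's heat effect between days was called by edgeR's test.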

How the results depend on the processing

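For heat against control on single days, changes between days and changes of the heat effect, 0 members were called in every alternative run and without each of the 24 libraries. For the 3 days together, 1 member (miR1137-491-5p) was called with DESeq2 size factors, and leaving out each library gave 0 to 1. With the replicate number as a block, 0 members were called for heat against control (lowest adjusted p = 0.0628), and with the pool of plants as a block 0 between days (lowest adjusted p = 0.324). The block changed no call of a member. Over 864 fold changes of members under alternatives, 44 changed sign and none of these was called. Outside the left-out libraries these were miR1137-171-5p at 4 DAT (0.038 with DESeq2 size factors, 0.073 without miR166, 0.0085 with the filter, 0.036 with DESeq2, 0.083 with the day alone), miR1137-504-5p at 1 DAT (0.013 without miR166) and 4 DAT (-0.029 with totals only), miR1137-137-5p at 0 DAT (0.022 with totals only), miR1137-121-5p at 1 DAT (0.016 with DESeq2 size factors, 0.027 with totals only, 0.041 without miR166, 0.012 with DESeq2, 0.016 with the day alone) and miR1137-332-5p at 1 DAT (0.0048 with totals only, 0.0062 without miR166, 0.016 with the day alone). Leaving out a library moved the fold change across 0 for miR1137-171-5p at 0 DAT (-0.067 to 0.54) and 4 DAT (-0.33 to 0.20), miR1137-504-5p at 1 DAT (-0.35 to 0.24) and 4 DAT (-0.016 to 0.38), miR1137-137-5p at 0 DAT (-0.22 to 0.045) and 4 DAT (-0.39 to 0.017), miR1137-383-5p at 4 DAT (-0.041 to 0.48), miR1137-121-5p at 1 DAT (-0.11 to 0.13), miR1137-332-5p at 1 DAT (-0.33 to 0.29), miR1137-226-5p at 0 DAT (-0.0037 to 0.37) and 1 DAT (-0.40 to 0.032) and the 22-nt miR1137-280-5p at 4 DAT (-0.28 to 0.030). It did the same for the ratios to miR1137-443-5p of miR1137-137-5p at 4 DAT (-0.088 to 0.16), miR1137-504-5p at 1 DAT (-0.045 to 0.38), miR1137-121-5p at 0, 1 and 4 DAT (-0.015 to 0.20, -0.084 to 0.31 and -0.077 to 0.20) and miR1137-280-5p at 0, 1 and 4 DAT (-0.077 to 0.43, -0.11 to 0.15 and -0.085 to 0.18). Counts over all 202 tags moved more. At 0 DAT they ranged from 22 (without library 3 of heat at 0 DAT) to 40 when a library was left out. At 1 DAT they fell from 23 to 5 with library totals only and to 1 with only the libraries of the day. Leaving out a library at 1 DAT gave 1 to 25, with 1 without library 2 and 6 without library 3 of control at 1 DAT and 12 to 13 without library 1, 3 or 4 of heat at 1 DAT. At 4 DAT, instead of 0, there were 2 with scaling without miR166, 3 with the likelihood ratio test, 4 with DESeq2, 1 with only the libraries of the day, and 0 to 4 without a library. The causes were not tested. In the order of levels, 4 neighbour pairs were called, or 3 to 4 without a pool, and the 4 without pool 2 of heat were not the same pairs. Leaving out a library kept the log2 fold change of miR1137-385-5p at 1 DAT between 1.37 and 2.17. Without miR166 in the denominator, the members' share of reads rose by construction, to 8.53% and 9.73% (control and heat at 0 DAT), 8.10% and 8.76% (1 DAT) and 8.10% and 7.16% (4 DAT).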
